A study of Mus musculus with 6 samples.

Results

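The imprinted region of mouse chromosome 12 that runs from Dlk1 past Mirg was followed in the noncoding RNA of the left atrium with and without FOG2 overexpression. Features were taken when they overlapped the interval from 109450000 to 109900000 on chromosome 12 (mm10), a stretch that holds Dlk1, Meg3, Rtl1, Rian, Mirg and their clusters of small RNA genes. This rule gave 10 of the 34518 features in the authors' deposited table. All 10 carried an assembler identifier and none a gene symbol. The study has 2 groups of 3 libraries: the left atrium of adult mice of genotype FOG2 Overexpression (FOG2_OE), and the same tissue of adult wild type mice (WT). Both were on CD1, which is an outbred stock. The labels also call the animals DTG and NTG without spelling these out, and DTG stands in the library names of FOG2_OE and NTG in those of WT. FOG2, encoded by Zfpm2, is a cofactor of GATA transcription factors. Both groups had been kept without doxycycline for 1 week. The labels do not name the promoter that drives FOG2, and they do not say whether a library came from a single animal, so the p-values measure only the spread between these libraries, which may be technical. Ribosomal RNA and polyadenylated RNA had been removed before sequencing.

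Imprinted genes are transcribed from the copy inherited from a given parent. In this region Dlk1, which encodes a membrane protein related to the Notch ligands, and Rtl1, a retrotransposon-derived gene, are known to be transcribed from the paternal copy, whereas Meg3, Rian and Mirg are long noncoding RNAs of the maternal copy. Rian is the host of many small nucleolar RNAs (snoRNAs) and Mirg of a large group of microRNAs (miRNAs), and further miRNAs lie opposite Rtl1, whose mRNA they are known to target in mouse. The noncoding RNAs are all transcribed in the same direction, and small RNAs are cut from long precursors that need not end in a poly(A) tail.

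The 10 features lay between the end of Meg3 and the start of Mirg, and all were listed on the plus strand, the strand of the maternal RNAs. The libraries were made with a kit that keeps no strand, and the listed strand is therefore not a measured one. The features spanned 131 kb, covered 28 kb or 6.22% of the 450 kb interval, and did not overlap each other. The first, MSTRG.21367, began 8.6 kb past the end of Meg3 in the GENCODE M21 annotation, and the last, MSTRG.21377, ended 18 kb before Mirg. No feature overlapped Dlk1, Meg3, Rian or Mirg, so that these RNAs themselves were not analysed here. Because neighbouring features may be pieces of the same long RNA, they cannot be taken as separate observations.

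Small RNA genes stood beside or inside several features. The RefSeq table lists 57 miRNA hairpins in the interval, with 112 mature miRNAs of 102 distinct seeds, and all 10 features lay between its first and last hairpin. None of these hairpins overlapped a feature. However, 3 features stopped or began within 100 bases of a hairpin, as did 22 features of the whole table (0.0637%), a distance chosen after the positions were seen. MSTRG.21367 began 6 bases after the Mir493 hairpin, and 16 bases after the mature miR-493-3p. MSTRG.21427 began 45 bases after the Mir431 hairpin. MSTRG.21377 ended 5 bases before the Mir380 hairpin and 8 bases before the mature miR-380-5p. At this end it also overlapped by 19 bases Gm25750, a miRNA gene that GENCODE lists on the opposite strand. The mature miRNAs of these 3 hairpins are shown because their precursors border the features that are described below (RefSeq, GRCm38.p6, plus strand; capitals mark the seed, bases 2 to 8). No other mature miRNA of the interval had any of these 6 seeds.
mmu-miR-493-5p: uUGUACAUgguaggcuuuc
mmu-miR-493-3p: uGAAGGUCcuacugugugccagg
mmu-miR-431-5p: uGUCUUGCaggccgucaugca
mmu-miR-431-3p: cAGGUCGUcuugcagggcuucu
mmu-miR-380-5p: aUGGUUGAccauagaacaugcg
mmu-miR-380-3p: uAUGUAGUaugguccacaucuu

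GENCODE lists 23 snoRNA genes in the interval, and 5 of them overlapped 4 of the features. SnoRNAs of the C/D class are known to guide the methylation of other RNAs and are named for their C box near the 5′ end and D box near the 3′ end. The 5 are shown because they mark which stretches of the features could be host sequence of such RNAs (GENCODE M21 transcripts, GRCm38, plus strand; capitals mark TGATGA within the first 20 bases and CTGA within the last 15 bases). Gm23347 lies in MSTRG.21438, Gm25856 and Gm23787 lie in MSTRG.21368, and Gm25224 lies in MSTRG.21371, while MSTRG.21370 holds only the last 18 bases of Gm25854. TGATGA stood at this place in 4 of the 5 and was not found there in Gm23347. Within the last 15 bases, CTGA was found in Gm23347 and Gm25856. Gm23787 and Gm25854 hold CTGA directly before that stretch, where it is not marked.
Gm23347: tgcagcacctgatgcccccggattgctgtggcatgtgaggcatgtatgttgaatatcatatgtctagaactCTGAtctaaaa
Gm25856: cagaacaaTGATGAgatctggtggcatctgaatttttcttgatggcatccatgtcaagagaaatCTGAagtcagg
Gm23787: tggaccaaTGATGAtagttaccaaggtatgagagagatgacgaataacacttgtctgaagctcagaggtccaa
Gm25854: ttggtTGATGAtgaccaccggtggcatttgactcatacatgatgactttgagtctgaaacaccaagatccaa
Gm25224: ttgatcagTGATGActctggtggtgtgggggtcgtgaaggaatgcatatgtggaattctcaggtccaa

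**Figure D1:**
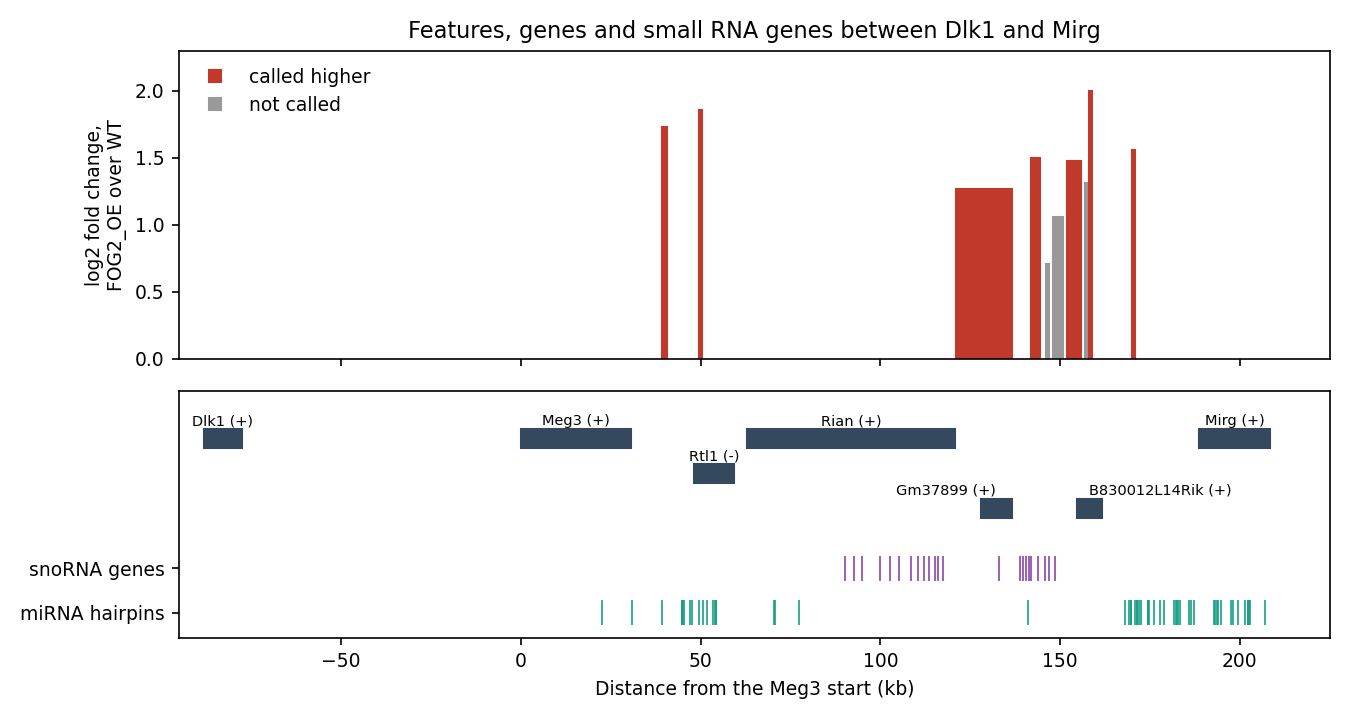
Upper panel, the 10 features by their distance from the Meg3 start in kb (box width is feature length, drawn at least 0.8 kb wide) and their log2 fold change of FOG2_OE over WT in the authors' deposited table (box height), red where called higher. Lower panel, annotated genes with their strand, snoRNA genes and miRNA hairpins. The features sit between Meg3 and Mirg, and all 10 fold changes are above 0.

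Noncoding RNA from this region was more abundant with FOG2 overexpression. At an adjusted p under 0.05, the authors' deposited table called 7 of the 10 features higher and 0 lower (likelihood ratio test with Benjamini-Hochberg adjustment over all 34518 features), where 1.16% of all features were called higher and 4.65% lower. All 10 had a log2 fold change above 0 (log2FC, FOG2_OE over WT), as had 39.4% of all features. Their median log2FC was 1.49 in the authors' deposited table, against -0.21 over all features, or 1.70 relative to that median. The fitted levels of the 10 features added up to 22.8 CPM (the fitted count scaled to the effective library size) in FOG2_OE and 8.94 CPM in WT, a ratio of 2.55. In these bulk samples more cells of a type and more RNA per cell cannot be told apart.

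The deposited sample columns were not counts: within a group they differed by library size alone, as values fitted by a model of group means do. The CPM is therefore the same for each library of a group, and the replicate spread enters only through the authors' likelihood ratio, from which a standard error (implied SE) was solved for each feature. The calls depend on how firmly that spread is taken as known. Read against F with 10 residual degrees of freedom in place of chi-square, the same likelihood ratios called 0 of the 10 features. Their smallest adjusted p was 0.107. Over the whole table these ratios called 70 features, or 0.203%, higher. Read against F with 4 residual degrees of freedom, those of 6 libraries in 2 groups, they called 0 of all 34518 features, and at an unadjusted p under 0.05 they gave 529 higher features, 7 of them in the region, and 1927 lower ones. An adjusted p under 0.1 called 7 of 10 (1.80% of all features higher), and centring the median ratio of all features at 1 called 8 of 10 (1.62%). A filter at a mean fitted count of at least 20 left 6 features of the region, and 162 or 1.98% of the 8176 features left in the table were called higher. The mean is taken over both groups, and MSTRG.21427 passed the filter through FOG2_OE alone (43.2 to 50.6 fitted counts in FOG2_OE, against 11.6 to 13.4 in WT), so that nothing is read from the calls among these 6.

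**Figure D2:**
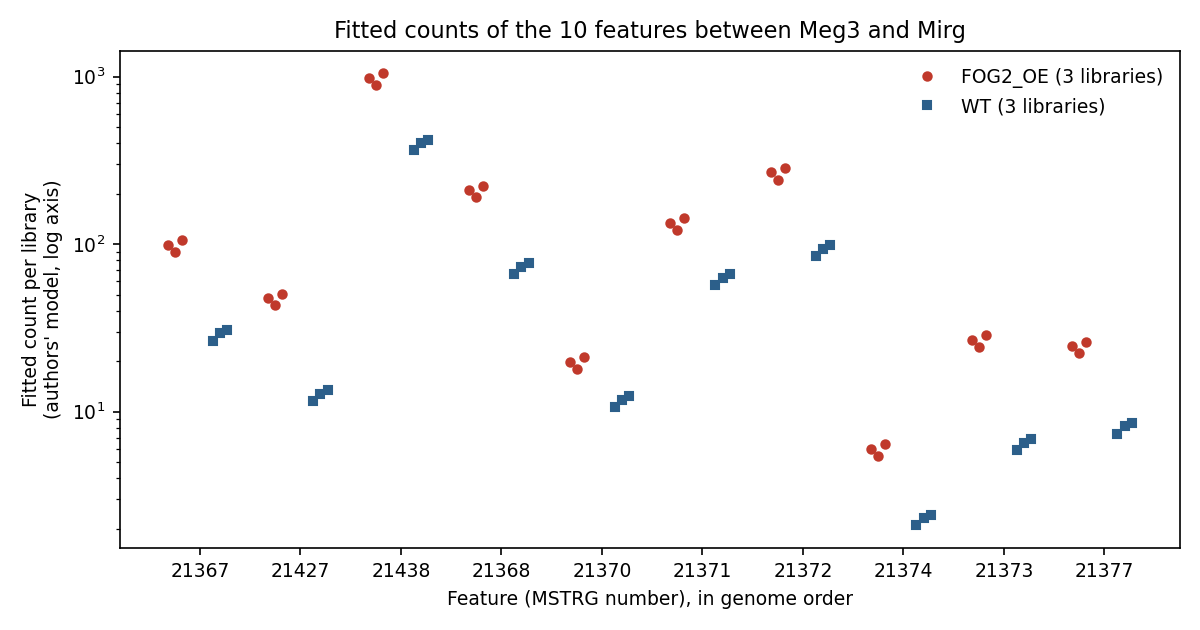
Fitted counts of the 10 features in each library (log axis), in genome order, with FOG2_OE as red circles left of WT as blue squares. Points of a group differ only by library size and show no replicate spread. For the scarcest feature, MSTRG.21374, the points run from 5.47 to 6.41 in FOG2_OE, against 2.1 to 2.43 in WT. For MSTRG.21438 they run from 894 to 1047 in FOG2_OE, against 363 to 419 in WT. The gap between the groups is fixed by the model of group means for changes of this size.

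The 2 features nearest to Meg3 lay in the stretch of miRNA genes around Rtl1. MSTRG.21367 (chromosome 12, 109580322 to 109581712, 1391 bases) overlapped no annotated gene and began next to the Mir493 hairpin shown above. It had fitted counts of 99, 90 and 106 in the FOG2_OE libraries, against 26.6, 29.3 and 30.7 in the WT libraries. The lowest FOG2_OE value was above the highest WT value, as the model of group means makes it for a change of this size. The authors' deposited table listed it at a log2FC of 1.73 (implied SE 0.50, adjusted p = 0.0184), and its level was 1.24 CPM in FOG2_OE, against 0.373 CPM in WT. MSTRG.21427 (109590583 to 109591108, 526 bases) lay within Rtl1 and overlapped an exon of it, on the opposite strand as listed, between the Mir431 and Mir433 hairpins. It had fitted counts of 47.5, 43.2 and 50.6 in FOG2_OE, against 11.6, 12.8 and 13.4 in WT. The gap between the groups is again fixed by the model of group means for a change of this size. The log2FC in the authors' deposited table was 1.86 (implied SE 0.59, adjusted p = 0.0337). Without strand, reads of Rtl1 mRNA and of a transcript opposite to it could not be told apart in this feature.

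Between these 2 features and the next lay a gap of 70.6 kb, which contains Rian. MSTRG.21438 (109661752 to 109677394, 15643 bases) began 35 bases past the annotated end of Rian. It covered 8526 bases of Gm37899, an annotated transcript of undetermined function, and the snoRNA gene Gm23347. It was the most abundant feature of the region, with fitted counts of 983, 894 and 1047 in FOG2_OE, against 363, 400 and 419 in WT. It therefore also gives the most precise fold: its log2FC in the authors' deposited table was 1.27 (implied SE 0.31, adjusted p = 0.0026), or 2.42-fold with an implied 95% interval of 1.58 to 3.71. The feature made up 54.1% of the summed level in FOG2_OE and 57% in WT. Without it the sum over the other 9 features was 2.73-fold higher in FOG2_OE.

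Further along, 3 features held or touched the other snoRNA genes. MSTRG.21368 (109682727 to 109685195, 2469 bases), with Gm25856 and Gm23787, had fitted counts of 210, 191 and 224 in FOG2_OE, against 66.5, 73.2 and 76.8 in WT. In the authors' deposited table its log2FC was 1.50 (implied SE 0.39, adjusted p = 0.0051). The other 2 were not called. MSTRG.21371 (109688953 to 109691895, 2943 bases), with Gm25224, had fitted counts of 134, 122 and 143 in FOG2_OE, against 57.1, 62.9 and 66 in WT, and the authors' deposited table gave it a log2FC of 1.06 (implied SE 0.41, adjusted p = 0.108). With the median ratio of all features centred at 1 its adjusted p was 0.0394. MSTRG.21370 (109686852 to 109687085, 234 bases), beside Gm25854, had the smallest fold of the region, with fitted counts of 19.8, 18 and 21.1 in FOG2_OE, against 10.7, 11.8 and 12.4 in WT. For it the authors' deposited table listed a log2FC of 0.71 with an adjusted p of 0.473, and the implied 95% interval ran from -0.23 to 1.65. These features need not reflect the mature snoRNAs, which are much shorter than the features.

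At the long intergenic noncoding RNA gene B830012L14Rik, 3 features overlapped the gene on its listed strand. MSTRG.21372 (109692635 to 109696506, 3872 bases) covered 921 bases of the gene, including at least part of an exon, and began upstream of the gene. Its fitted counts were 268, 243 and 285 in FOG2_OE, against 85.4, 94.1 and 98.7 in WT, and the authors' deposited table listed a log2FC of 1.48 (implied SE 0.38, adjusted p = 0.0052). MSTRG.21373 (109698631 to 109699045, 415 bases) lay within the gene, overlapped another exon and had the largest fold of the region. It had 26.9, 24.4 and 28.6 fitted counts in FOG2_OE, against 5.92, 6.52 and 6.84 in WT, and its log2FC in the authors' deposited table was 2.0 (implied SE 0.64, adjusted p = 0.0342). MSTRG.21374 (109697674 to 109697852, 179 bases) lay in the intron between them and was the scarcest, at 0.0755 CPM in FOG2_OE and 0.0295 CPM in WT. Its log2FC of 1.31 in the authors' deposited table was not called (adjusted p = 0.519), and its implied 95% interval, from -0.63 to 3.25, was the widest.

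MSTRG.21377 (109711501 to 109711797, 297 bases) was the only listed feature inside the miRNA cluster that runs from Mir379 into Mirg, and it ended next to the Mir380 hairpin shown above. It had fitted counts of 24.6, 22.4 and 26.2 in FOG2_OE, against 7.41, 8.16 and 8.56 in WT. Its log2FC in the authors' deposited table was 1.56 (implied SE 0.53) and its adjusted p 0.0461, the largest adjusted p among the 7 that were called. Mature miRNAs are far shorter than these features, and their levels were not analysed here.

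**Figure D3:**
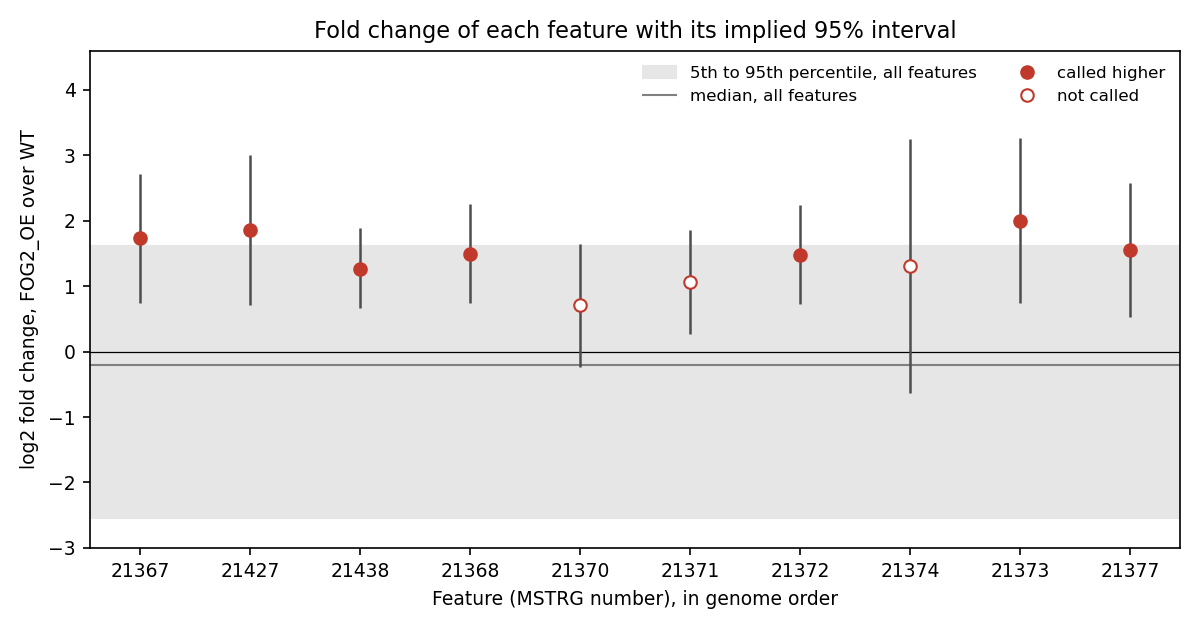
The log2FC of FOG2_OE over WT in the authors' deposited table for each feature in genome order (points, filled where called higher) with its implied 95% interval (bars), over the range from the 5th to the 95th percentile of all features (grey band, -2.55 to 1.62) and their median (grey line, -0.21). All 10 intervals share the range from 0.74 to 1.65.

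The implied intervals of the 10 folds overlapped. The log2FCs ran from 0.71 to 2.0 in the authors' deposited table, with implied SEs of 0.31 to 0.99, and the range from 0.74 to 1.65 lay inside the implied 95% interval of each of the 10. No difference between features was tested. The level per length ran from 0.422 to 1.13 CPM per kb in FOG2_OE, with a median of 0.881, and from 0.165 to 0.645 CPM per kb in WT, with a median of 0.31. Over all features of the table the median level per length was 0.357 CPM per kb in FOG2_OE and 0.42 CPM per kb in WT. The biological coefficient of variation implied by the likelihood ratio stands for the replicate spread in the authors' model. It need not be each feature's own spread. It ran from 26.3% in MSTRG.21438 to 63.3% in MSTRG.21374. Among features outside the region within 1.5 times their mean fitted count, its median was 24.6% for MSTRG.21438 and 63.4% for MSTRG.21374. Called features above the median of like abundance were MSTRG.21367 (40.1% against 33.1%), MSTRG.21427 (44.5% against 34%) and MSTRG.21373 (44.8% against 37.7%). Below it were MSTRG.21370 (31.2% against 38.2%) and MSTRG.21377 (34% against 37.7%), and the remaining features lay close to it. Of the features of like abundance, 0.6% to 1.69% were called higher.

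Of the 79 features within 1 Mb of the interval on both sides, 0 were called higher. This is near the share of the whole table, where 1.16% of all features were called higher. Within 1 Mb upstream of the interval, 48 features had a median of -0.37 for the log2FC in the authors' deposited table, and 0 were called higher and 2 lower. Within 1 Mb downstream, 31 features had a median of -0.57, with 0 called in either direction. The nearest listed feature upstream, MSTRG.21322, lay 537 kb from the first feature of the region. It was the last of 5 features over Begain, which encodes a synaptic scaffold protein and whose 5 features had log2FCs of -0.92 to -0.01 in the authors' deposited table, with 0 called. The nearest downstream, MSTRG.21448, lay 755 kb from the last feature and in the authors' deposited table had a log2FC of -2.33 (adjusted p = 0.0774). No feature overlapped Wdr25, Dio3, the deiodinase gene that bounds the imprinted region, or its neighbour Dio3os. On the rest of chromosome 12, 64 of 1854 features (3.45%) were called higher and 5.61% lower, against 1.16% and 4.65% of all features. Of these 64 features, 44 lay in a single stretch of 186 kb over Hdac9.

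**Figure D4:**
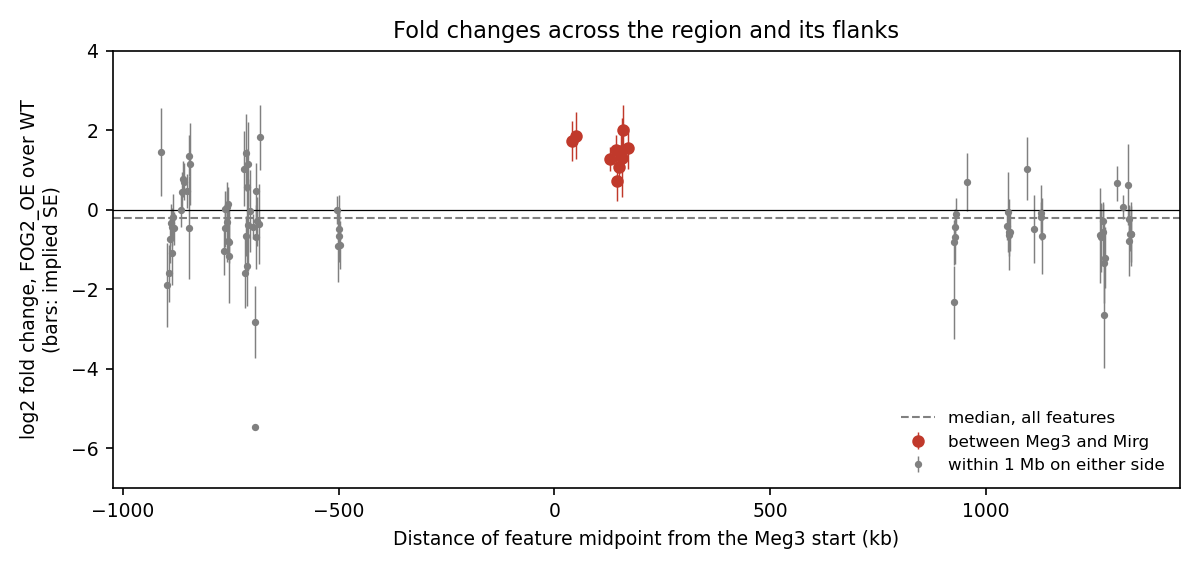
The log2FC of FOG2_OE over WT in the authors' deposited table against the distance of each feature from the Meg3 start in kb, for the 10 features of the region (red) and the 79 features within 1 Mb of the interval (grey), with implied SE as bars (none for a feature at 0 in FOG2_OE). The red points lie between 0.71 and 2.0, while the grey medians are -0.37 upstream and -0.57 downstream.

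Stretches with as many higher features were few. When features called higher in the authors' deposited table were joined over gaps of at most 100 kb, they made 231 clusters, of which 172 held a single feature and 5 held at least 7. The 7 called features of the region made up 1 of these 5. Over its extent 10 of 10 listed features had a log2FC above 0. The sum over its listed features was 2.55-fold higher in FOG2_OE, and in the other 4 the ratio ran from 2.39 for a stretch on chromosome X to 13.8 for one on chromosome 8. These intervals were chosen by their calls, so that the ratios are descriptions.

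Features at other imprinted genes were called higher at a share near that of the whole table. Of 49 listed genes outside the region, 48 were found in the annotation and 22 overlapped a feature, on either strand. For these 44 features the authors' deposited table gave 1 higher call (2.27%, against 1.16% of all features), 0 lower ones and a median log2FC of 0.20. The call was MSTRG.11649 in Grb10, which encodes an adaptor that dampens insulin signalling. It stood at 0.186 CPM in FOG2_OE and 0.0388 CPM in WT, with a log2FC in the authors' deposited table of 2.21 (implied SE 0.71, adjusted p = 0.0242). Among long noncoding RNAs that silence imprinted neighbours, the 2 features over Airn had log2FCs of 0.22 and 0.65, and the 2 over Kcnq1ot1 of 1.25 and 1.27, in the authors' deposited table. None of these 4 was called, and Kcnq1ot1 lies within Kcnq1 on the opposite strand, so that reads of the genes could not be told apart there. The 4 features of Snhg14, the long host RNA of the Snrpn and Ube3a region, ran from -1.15 to -0.33, and the 10 over Gnas, 5 of them also over its antisense RNA Nespas, from -1.52 to 1.17 (log2FCs in the authors' deposited table), with 0 called. The feature over Xist and its antisense partner Tsix, the RNAs of X inactivation, stood at 702 CPM in FOG2_OE and 701 CPM in WT. Of the 44 features, 14 had a mean fitted count of at least 20.

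**Figure D5:**
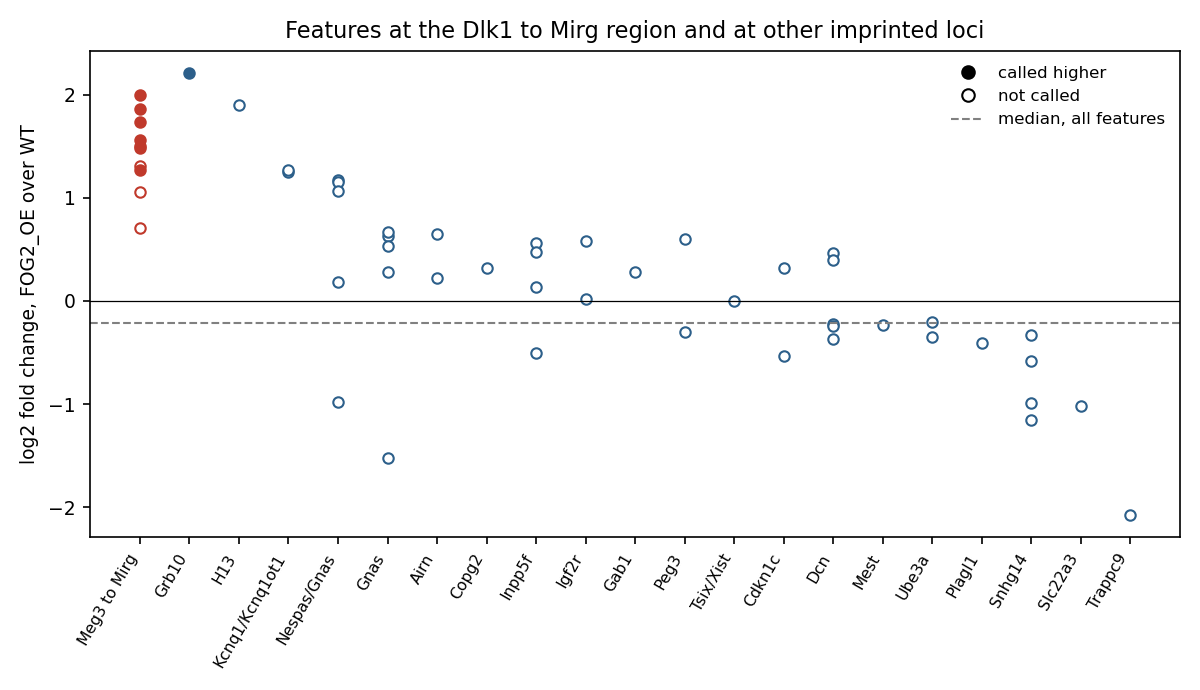
The log2FC of FOG2_OE over WT in the authors' deposited table of each feature (points, filled where called higher) at the region between Meg3 and Mirg (red) and at other imprinted loci (blue), with the median of all features as a dashed line. In the region 7 of 10 features are called, at the other loci 1 of 44.

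At the Meg3 start, from which the noncoding strand of the region is thought to be read, the promoter window held no GATA letters. The sequence from 250 bases before to 50 bases after the start (RefSeq, GRCm38.p6, chr12:109540746-109541045, plus strand) is shown because Meg3 is the first noncoding gene upstream of the 10 features, 7 of which were called higher. It was searched on both strands for GATA letters (AGATAA or TGATAA, each also with G as its last base), for the T-box letters AGGTGT and for the cyclic AMP response element TGACGTCA, the last one chosen after the sequence was read. Only TGACGTCA was found, once, and is in capitals. Of 32851 promoters of this length, 29.8% held the GATA letters, 13.7% AGGTGT and 1.79% TGACGTCA. The promoter of Dlk1 held TGATAA and AGGTGT, that of Rian AGATAA and that of Mirg AGGTGT, 1 match each, and the second Meg3 start, 1 match to AGGTGT. Matches of letters are descriptions and not sites of binding.
Meg3 promoter: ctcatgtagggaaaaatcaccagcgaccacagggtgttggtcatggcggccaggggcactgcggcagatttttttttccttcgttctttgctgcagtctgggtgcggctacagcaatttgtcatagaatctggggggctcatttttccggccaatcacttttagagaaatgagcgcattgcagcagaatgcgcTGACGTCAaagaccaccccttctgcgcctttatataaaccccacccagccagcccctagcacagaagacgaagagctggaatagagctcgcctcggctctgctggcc

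The libraries were of similar size, with effective sizes of 71165727 to 84887010 reads implied by the table, and the group labels were checked by Zfpm2. Of 3 features over Zfpm2, the most abundant, MSTRG.29831, stood at 416 CPM in FOG2_OE, against 0.484 CPM in WT. The check rests on this feature. In the authors' deposited table MSTRG.29829 (log2FC 0.94, adjusted p = 0.19) and MSTRG.29830 (log2FC -1.07, adjusted p = 0.48) were not called. Features over marker genes describe only the noncoding part of those loci. For atrial muscle, 15 features over 4 of 5 genes (Myl7, Myl4, Sln and Kcnj3) summed to 9.55 CPM in FOG2_OE, against 24.1 CPM in WT. Of these 15, the authors' deposited table called 0 higher and 7 lower, where 1.16% of all features were called higher and 4.65% lower. For fibroblasts, 18 features over 3 of 5 genes (Col1a1, Col3a1 and Dcn) summed to 3.13 CPM in FOG2_OE, against 1.92 CPM in WT, with 0 called. Of these 18, 15 had a log2FC above 0. The sum over the 5 features at Dcn went the other way, with 0.759 CPM in FOG2_OE and 0.81 CPM in WT. For endothelium, 9 features over 3 of 4 genes (Pecam1, Cdh5 and Kdr) summed to 1.28 CPM in FOG2_OE, against 0.834 CPM in WT, with 0 called. Cd68 among 4 leukocyte genes and S100b among 4 genes of neurons and glia had 1 feature each, neither called, and no feature overlapped the ventricular (3) or fat (2) genes. The part of these differences in the change of the region was not tested.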

How the data were processed

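Per the labels' protocols, libraries were made with the TruSeq RNA v2 kit from left atrial RNA after removal of ribosomal and polyadenylated RNA. The mm10 build, edgeR, deepTools, STAR and HTSeq (version 0.6.0) are named in the submitters' processing notes. The assembler and filters are not given in the sources used here. The authors' deposited table gave per feature a log2 fold change and log2 CPM, a likelihood ratio score (1 degree of freedom) and its p-value, raw and adjusted.

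Its 6 sample columns were constant multiples of each other within a group (largest relative spread 1.8e-14) and were read as fitted values. No count test could be run, and the authors' comparison is the main result. Effective library sizes came from 788 features above 300 fitted counts in both groups. The dispersion that links the fitted values to the likelihood ratio (ratios of at least 0.1, otherwise the median of like abundance in 50 bins) gave the implied SE and the calls with the median ratio centred at 1. The solver was tested on simulated data with known dispersions, which covers neither errors in the authors' dispersions nor the coverage of the implied intervals. Implied 95% intervals are 1.96 SEs either side. Starts are counted from 0 in the table, since 96 of its 102 symbols that RefSeq also lists began 1 below the RefSeq start, and are printed from 1.

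The features, gene lists and tests were chosen with earlier results of these data known. Named were all features overlapping the 5 genes' exons or small RNA genes, all called features and the 10 most abundant, which together are all 10. Hairpins within 100 bases were chosen after seeing positions. Python 3.11.15, numpy 2.4.6, scipy 1.17.1, pandas 2.3.3 and matplotlib 3.10.9 were used.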

Additional observations from a re-analysis of the deposited data

How the results depend on the processing

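With 4 or 10 residual degrees of freedom the count of higher features in the region was 0, against 7 in the authors' deposited table, and with 10 the count at other imprinted loci was 0 in place of 1, as it was among features with a mean fitted count of at least 20. Changing the scale or the threshold to 0.1 gave counts of higher features within 1.5 times of 7. A threshold of 0.1 cannot lower a count. Centring raises each log2FC by the same amount, so that their median could only rise. The summed ratio, over the settings that gave one, stayed between 2.55 and 2.96. Centring multiplies the ratio by a constant, which gave the 2.96. The features that the filter took out held at most 1.69% of the sum each, so that the filter could hardly move the ratio. Leaving out MSTRG.21438, the most abundant feature, gave 2.73. The other windows (from Dlk1 to Mirg, to the end of Dio3, or by midpoints) and the plus strand hold the same 10 features, so that their values could not differ. Without features listed on the plus strand none was left, so that no value for the minus strand could be had. Of the features of the region, 4 had a mean fitted count under 20 and were left out by the filter. No paired analysis was possible because the sample columns hold fitted values and not counts. For the same reason no replicate could be left out and DESeq2 was not run.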

Other observations

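Of the 5 stretches with at least 7 features called higher, the one closest in size of change lay on chromosome X from 9795118 to 9870282, over Hypm and H2al3. Its 33 listed features summed to 18.4 CPM in FOG2_OE, against 7.7 CPM in WT, with 7 called higher and 30 with a log2 fold change above 0 in the authors' deposited table. A stretch on chromosome 3 from 41181194 to 41246623 that overlapped no protein-coding gene had 23 listed features, 16 of them called higher in the authors' deposited table, and summed to 11.9 CPM in FOG2_OE, against 2.27 CPM in WT.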
